A study of Mus musculus with 6 samples.

Results

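The GDNF family of ligands and receptors was followed across 6 whole-testis mRNA libraries. Its members were taken by gene symbol: the ligands Gdnf, Nrtn, Artn and Pspn, the co-receptors Gfra1, Gfra2, Gfra3 and Gfra4, and the receptor tyrosine kinase gene Ret. All 9 symbols were found among the 21786 symbols counted in every library. The Stra8-deficient group holds 3 libraries, made from the grossly enlarged testes of Stra8 -/- males at 1 year of age, which the labels describe as mainly cells resembling type A spermatogonia. The wild-type group holds 3 libraries from Stra8 +/+ males at 2 to 4 months, and all animals have a C57BL/6 background. Age and testis enlargement follow genotype, so their effects cannot be told apart.

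GDNF family ligands signal through a complex in which a GFRA protein, anchored to the membrane by a lipid, binds the ligand and brings it to RET, whose kinase then recruits adaptor proteins. Each ligand has a preferred co-receptor: GDNF binds GFRA1, neurturin (from Nrtn) binds GFRA2, artemin (from Artn) binds GFRA3 and persephin (from Pspn) binds GFRA4. In the testis, Sertoli cells and peritubular cells make GDNF, and undifferentiated spermatogonia carry GFRA1 and RET and depend on this signal for self-renewal. Outside the testis the family is best known for the survival of peripheral and enteric neurons and for kidney development.

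Depth ranged from 6711021 to 12339771 reads in the shared symbols of a library, and 3 counts, the limit that a count of 0 allows, amounted to 0.243 to 0.447 CPM before scaling, where CPM is the library's reads of a gene per 1000000 reads. CPM values below are TMM-scaled (factors of 0.796 to 0.814 for wild type, 1.21 to 1.27 for Stra8-deficient). A positive log2 fold change means higher in Stra8-deficient testes, and its standard error (SE) was derived from the test statistic. Intervals and limits cover counting error only. The labels do not say that replicates are separate animals, so the p-values measure the spread between libraries, which may be technical. The biological coefficient of variation was 38.2% within the Stra8-deficient and 7.46% within the wild-type libraries. Leydig cell genes varied widely among the enlarged testes: their 7 markers summed to between 18.4 and 2766 CPM in the Stra8-deficient libraries and 769.5 to 1257 CPM in wild type. The third Stra8-deficient library had been counted on a longer list of 23285 symbols, against 22055 in each other library, so its gene models for the members may differ from theirs. Stra8 itself was read in every library, at 18.1 to 23.7 CPM in Stra8-deficient and 17.0 to 18.7 CPM in wild-type testes. Its counts sum all exons and do not check the labels. With edgeR's quasi-likelihood test, 75.8% of the 15018 tested genes were called at an adjusted p under 0.05 (39.0% up, 36.7% down).

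In the enlarged testes the mRNAs of the GDNF receptors Gfra1 and Ret rose while Gdnf mRNA fell, and Gfra2, the leading co-receptor mRNA of normal testis, fell while Gfra3 rose. Of the 9 genes 8 had enough reads for the test: Gfra1, Gfra3 and Ret were higher, Gdnf, Artn, Gfra2 and Gfra4 were lower, and Nrtn was not called. With 39.0% of all genes called higher and 36.7% lower, 3 higher and 4 lower calls among 8 genes are no result about the family by themselves. In 7 of the 8 tested members the genotypes did not overlap, against 80.2% of all genes. The fitted changes ran from 127.8 times lower for Gfra2 to 175.2 times higher for Gfra3.

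**Figure D1:**
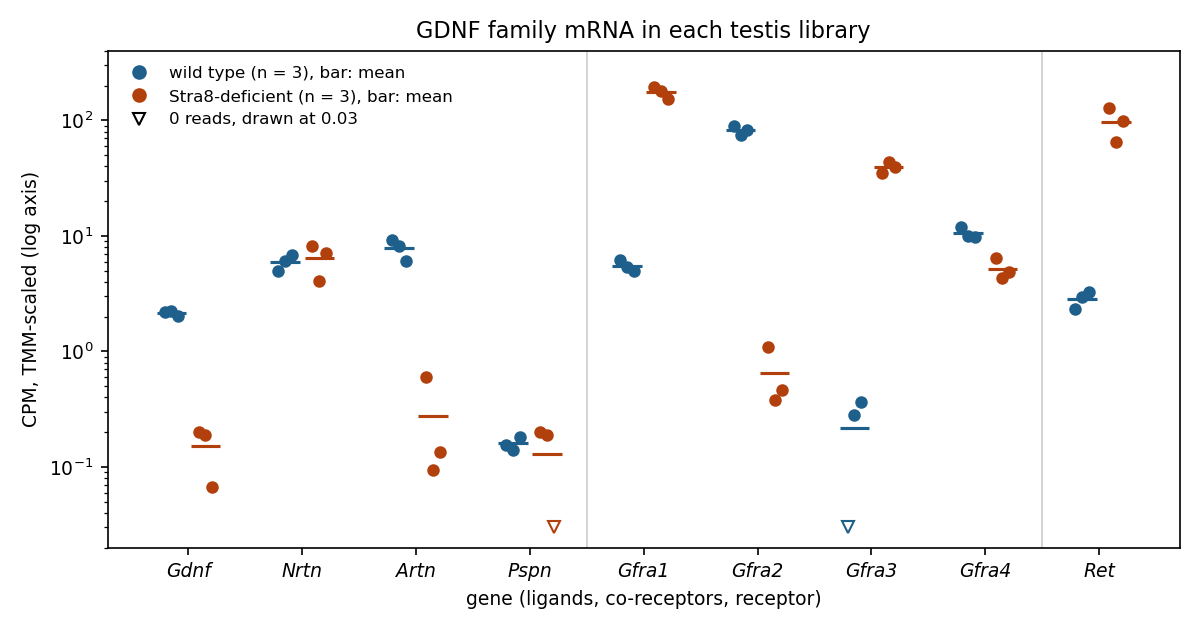
Level of each family gene in each library, as TMM-scaled CPM on a log axis, for 3 wild-type (blue) and 3 Stra8-deficient (red) testes. Bars are means over 3 libraries and open triangles are libraries with 0 reads. Gfra1, Gfra3 and Ret lie higher in every Stra8-deficient library, Gdnf, Artn, Gfra2 and Gfra4 lie lower, and Nrtn and Pspn overlap.

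Among the ligands, Gdnf was a low-level mRNA in both genotypes. It was read 14, 16 and 11 times in the wild-type libraries, or 2.18, 2.26 and 2.01 CPM. In the Stra8-deficient libraries it was read 2, 2 and 1 times, or 0.200, 0.190 and 0.0669 CPM. Every Stra8-deficient library thus lay below every wild-type library, and each count there was at or under the limit of 3. Gdnf fell by 3.78 ± 0.51 (SE) on the log2 scale (edgeR, adjusted p = 1.15e-04). The ratio of pooled rates, wild type over Stra8-deficient, was 15.3 (95% counting interval 6.06 to 49.7).

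Artn, which encodes artemin, fell with it. Its counts were 59, 58 and 33 in wild type, 9.20, 8.18 and 6.04 CPM, and 6, 1 and 2 in the Stra8-deficient libraries, 0.601, 0.0951 and 0.134 CPM. The first Stra8-deficient library held most of the remaining reads, and the genotypes did not overlap. The fit gave a log2 change of -4.83 ± 0.60 (edgeR, adjusted p = 7.29e-05). It was -5.93 without the first Stra8-deficient library.

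Nrtn, which encodes neurturin, was the only tested ligand not called. It stood at 8.12, 4.09 and 7.16 CPM in the Stra8-deficient and 4.99, 6.06 and 6.78 CPM in the wild-type libraries, and the second Stra8-deficient library was the lowest of all 6. Its log2 change was 0.12 ± 0.35 (edgeR, adjusted p = 0.764), and the ratio of pooled rates was 1.10 with a 95% counting interval of 0.877 to 1.40. The Stra8-deficient libraries spread more widely (SD 2.10 CPM) than the wild-type ones (SD 0.899 CPM). Persephin mRNA (Pspn) was at the limit of detection, with 1 read in each wild-type library and 2, 2 and 0 in the Stra8-deficient libraries. It did not pass the filter and gets no fold change.

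Artn and Gdnf are the pair of ligands that fell together, and the RefSeq promoter table (build GRCm38.p6, whereas the reads were mapped to mm9) holds both of them. It matched 6 of the 9 members. Their 250 bases before the transcription start are shown to let the ligands be compared, with capitals marking a TATA box (TATAAA) in the first listed Gdnf start and GC boxes (GGGCGG or its reverse complement CCGCCC) in Artn. The Gdnf window lies at chr15:7809798-7810047 on the plus strand and the Artn window at chr4:117929764-117930013 on the minus strand.
Gdnf: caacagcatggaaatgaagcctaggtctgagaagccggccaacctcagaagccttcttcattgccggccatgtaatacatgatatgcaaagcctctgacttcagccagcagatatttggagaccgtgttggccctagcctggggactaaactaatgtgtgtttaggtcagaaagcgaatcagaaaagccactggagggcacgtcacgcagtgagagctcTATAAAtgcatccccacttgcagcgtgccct
Artn: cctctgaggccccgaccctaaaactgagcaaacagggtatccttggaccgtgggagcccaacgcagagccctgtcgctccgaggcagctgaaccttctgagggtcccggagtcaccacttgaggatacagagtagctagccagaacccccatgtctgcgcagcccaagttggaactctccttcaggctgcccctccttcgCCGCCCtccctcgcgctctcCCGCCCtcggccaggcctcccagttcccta
The TATA box of Gdnf begins 31 bases before this first listed start. TATAAA on either strand was in 12.4% of the 32851 promoter windows of the same length and GGGCGG in 32.7%. CACGTG and GGAAGT, also searched on both strands, were in neither window and in 6.02% and 19.7% of all windows. The windows shown thus share none of the 4 motifs searched. CG dinucleotides numbered 7 in this Gdnf window and 13 in the Artn window against a median of 6. A second listed Gdnf start, with its window at chr15:7813477-7813726, held none of the 4 motifs and 14 CG dinucleotides. Which start is used in testis was not tested.

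Of the co-receptors, Gfra1, which encodes the GDNF co-receptor of spermatogonial stem cells, stood at 194.1, 179.1 and 154.1 CPM in the Stra8-deficient libraries, from 1937, 1883 and 2304 reads. In wild type it stood at 6.24, 5.36 and 4.94 CPM, from 40, 38 and 27 reads. All 3 enlarged testes were far above all 3 normal ones. In GENCODE M21 the antisense gene Gm16277 overlaps 416 exonic bases of Gfra1, and without strand its reads cannot be told apart from those of Gfra1. Gfra1 rose by 4.99 ± 0.21 (edgeR, adjusted p = 7.91e-08), a fold of 31.7.

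Gfra3, the co-receptor of artemin and known from sensory and sympathetic neurons, was near the detection limit in wild type only. Wild-type libraries held 0, 2 and 2 reads, and a count of 0 in the first of them allows up to 0.380 CPM before scaling. The Stra8-deficient libraries held 351, 460 and 588 reads, or 35.2, 43.8 and 39.3 CPM. In log2 the fit gave 7.45 ± 0.47 (edgeR, adjusted p = 8.55e-07). Because 4 wild-type reads carry this value, the ratio of pooled rates, 187.2, has a wide 95% counting interval of 72.9 to 687.9. The ligand and the co-receptor of this pair, Artn and Gfra3, therefore moved in opposite directions, as did Gdnf and Gfra1.

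Gfra2, the co-receptor of neurturin, moved the other way. It was the highest member in wild type per length, at 89.3, 75.1 and 82.4 CPM from 573, 533 and 450 reads. Only 11, 4 and 7 reads remained in the Stra8-deficient libraries, 1.10, 0.380 and 0.468 CPM. The genotypes were separated by a wide gap. On the log2 scale it changed by -7.00 ± 0.35 (edgeR, adjusted p = 2.23e-07), and the ratio of pooled rates, wild type over Stra8-deficient, was 132.2 (95% counting interval 87.0 to 211.5). Its ligand gene Nrtn, described above, was not called.

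Gfra4, the co-receptor of persephin, fell the least. It was read 64, 45 and 73 times in enlarged testes, against 77, 71 and 53 times in normal ones. After scaling these were 5.19 ± 1.10 and 10.6 ± 1.25 CPM (SD, n = 3 each), and the genotypes did not overlap. As a log2 fold, the change was -1.03 ± 0.29 (edgeR, adjusted p = 0.0106). This call depended on scaling and on single libraries: it was lost when only library size was used (-0.41; edgeR, adjusted p = 0.236) and without the first wild-type library (-0.92; edgeR, adjusted p = 0.0614), and under scaling to Sertoli markers the sign turned, to 1.46 (edgeR, adjusted p = 0.0554).

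Ret, the kinase that all 4 co-receptors share, rose with Gfra1. Enlarged testes had 128.9, 65.0 and 98.0 CPM, and normal testes 2.34, 2.96 and 3.30 CPM, from 15, 21 and 18 reads. The second Stra8-deficient library was the lowest of the enlarged testes and still far above every wild-type library. Ret rose by 5.08 ± 0.33 (edgeR, adjusted p = 9.98e-07), a fold of 33.9.

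The authors' deposited table of the same comparison, computed with edgeR from these libraries and so not independent, gave log2 ratios of 5.09 for Ret and 7.55 for Gfra3, and a corrected p of 4.34e-40 for Gfra1. For Gdnf, Artn and Gfra2 the authors' deposited table gave -3.92, -4.92 and -7.03. Gfra4 was at -1.03 and Nrtn at 0.12 in the authors' deposited table, with corrected p-values of 0.00660 and 0.815.

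Each change is relative to the scaling used. Over all tested genes the median log2 fold change was 0.11 under TMM, -0.009 under RLE size factors and 0.38 under upper-quartile factors. It was 0.73 if only library size was used, and 2.62 if libraries were scaled to their summed Sertoli markers. The shares of all genes called up and down were 36.8% and 38.4% under RLE, 44.2% and 33.0% under upper-quartile, 50.3% and 28.8% under library size, and 67.2% and 12.2% under Sertoli scaling. Gfra1, Gfra3 and Ret were called higher and Artn and Gfra2 lower under all 5. Gdnf was called lower under 4 of them but not under Sertoli scaling (-1.58; edgeR, adjusted p = 0.102), under which Nrtn was called higher (2.47; edgeR, adjusted p = 0.00158).

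**Figure D2:**
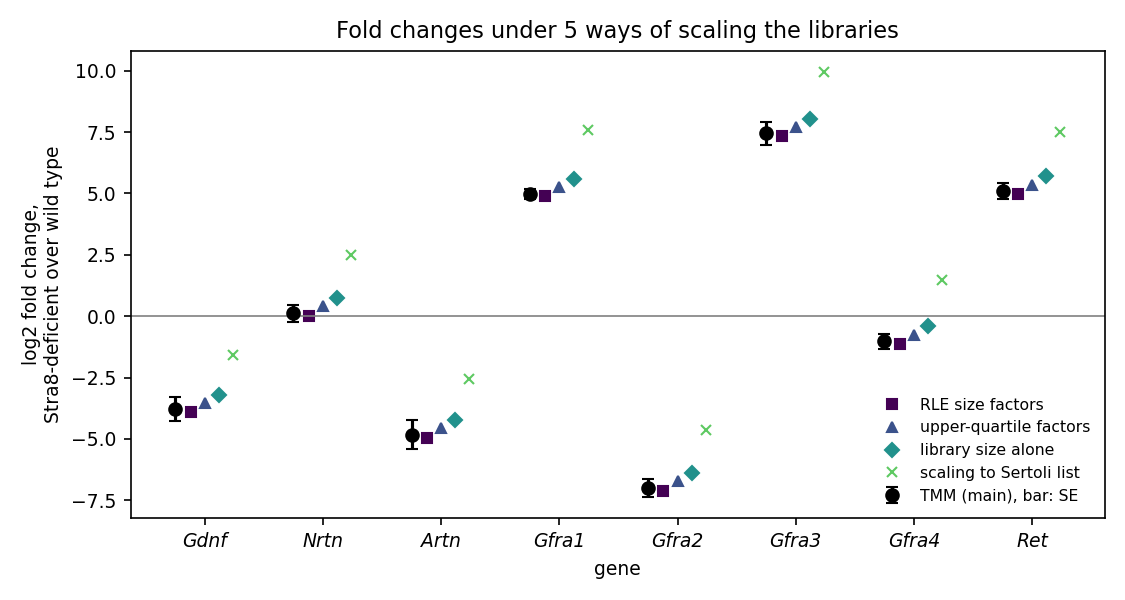
Log2 fold change (Stra8-deficient over wild type) of the 8 tested members under 5 scalings of the libraries, with the SE drawn for the TMM values. Values of Gfra1, Gfra3 and Ret stay above 0 and those of Gdnf, Artn and Gfra2 below 0 under each scaling, whereas Nrtn moves from 0.12 to 2.47 and Gfra4 from -1.03 to 1.46 between TMM and the Sertoli list.

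Levels can be compared between genes only per length, here as TMM-scaled CPM per kilobase of the merged exons in GENCODE M21, in which all 9 members were found. In wild-type testis Gfra2 led with 23.3 ± 2.00 CPM per kilobase (SD, n = 3). Nrtn (5.81 ± 0.879) and Gfra4 (4.88 ± 0.577) followed with overlapping ranges, then Artn (3.25 ± 0.669), Gfra1 (1.01 ± 0.120) and Gdnf (0.585 ± 0.0337). Ret (0.424 ± 0.0719) and Pspn (0.338 ± 0.0451) overlapped, and Gfra3 (0.108 ± 0.0960) was last. In the Stra8-deficient testes Gfra1 led with 32.1 ± 3.70 CPM per kilobase (SD, n = 3), above Gfra3 (19.7 ± 2.15) and Ret (14.4 ± 4.73), whose ranges overlapped. Nrtn (6.31 ± 2.06) and Gfra4 (2.40 ± 0.508) came next, and Pspn, Gfra2, Artn and Gdnf all lay under 0.5 in every library, each overlapping its neighbour. Gdnf, the ligand of the leading co-receptor, had the lowest mean of the 9 at 0.0415 ± 0.0202, from 2, 2 and 1 reads. It was not lowest in each library: Artn was below it in the second (0.0396 against 0.0518) and Pspn, at 0, in the third.

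Shares within the family do not depend on how libraries are scaled to each other. Among the 4 co-receptors, Gfra2 made up 79.1%, 78.7% and 80.7% of the summed CPM per kilobase in the wild-type libraries and 0.553%, 0.190% and 0.263% in the Stra8-deficient ones. Gfra1 went from 3.57%, 3.63% and 3.13% to 62.9%, 57.7% and 56.0%. Gfra3 went from 0.386% ± 0.339 to 36.4% ± 4.43 and Gfra4 from 16.7% ± 0.998 to 4.41% ± 0.889 (SD, n = 3 each). Normal testis was thus mainly Gfra2 with Gfra4, and the enlarged testis mainly Gfra1 with Gfra3. Among the ligands Nrtn held 58.1% ± 7.55 in wild type and 93.2% ± 5.15 in the Stra8-deficient libraries, while Artn went from 32.6% ± 7.41 to 1.52% ± 1.19 and Gdnf from 5.87% ± 0.380 to 0.680% ± 0.450 (SD, n = 3 each). The genotypes did not overlap in any of these shares except that of Pspn, and exact two-sided permutation gave p = 0.1 for each, the smallest that 3 against 3 libraries allow, and p = 0.7 for Pspn.

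**Figure D3:**
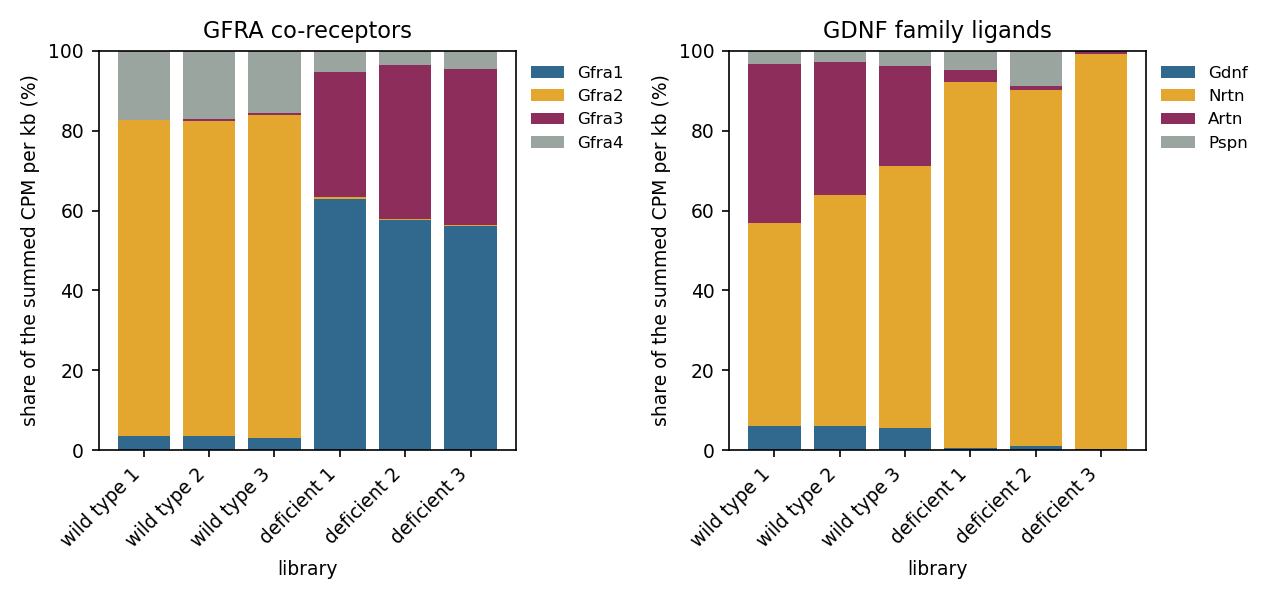
Share (%) of each gene in the summed CPM per kilobase of the 4 co-receptors (left) and the 4 ligands (right), 1 bar per library. Gfra2 fills about 79% to 81% of the wild-type bars and under 1% of the Stra8-deficient bars, where Gfra1 and Gfra3 take its place, and Nrtn fills most of every ligand bar.

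Ratios within a library set the receptors beside the cells that carry them. The ratio of Gfra1 to Ret reads, in log2 with 0.5 added to each count, was 0.59, 1.46 and 0.65 in enlarged testes, against 1.39, 0.84 and 0.57 in normal ones. The mean difference was -0.03 (exact two-sided permutation p = 1), so the pair rose by amounts that these libraries do not distinguish. Both were then set against the summed reads of 13 markers of undifferentiated spermatogonia, led by Lin28a and Zbtb16. Gfra1 to this list was -3.35 ± 0.29 in enlarged and -3.60 ± 0.14 in normal testes, and Ret to this list -4.25 ± 0.30 and -4.53 ± 0.29 (SD, n = 3 each). The differences were 0.25 (exact permutation p = 0.3) and 0.29 (exact permutation p = 0.4), and the genotypes overlapped in both. The marker list itself, whose behaviour in these data was known when it was chosen, had 13 of 13 members called higher, beside 39.0% of all genes. Its sum was 1515 to 2444 CPM in enlarged against 64.6 to 70.3 CPM in normal testes, with Pax7 at 0 reads in wild type. The list does not hold every gene known from these cells. Id4, also found in stem spermatogonia, was placed among the GDNF-induced genes and fell by 2.76 ± 0.21. Of the 7 tested genes in that other list, 3 were higher and 3 lower. In whole testis, more cells of a type and more RNA per cell cannot be told apart.

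Gdnf was set beside markers of the cells that make it. Of 14 Sertoli markers in the files, led by Clu and Ctsl, 11 were lower and 3 not called, beside 36.7% lower over all genes. Among these markers Defb19 had 0 reads in the second Stra8-deficient library. Their sum was 289.4 to 1328 CPM in Stra8-deficient and 2746 to 3084 CPM in wild-type libraries. Clu stood at 120.6, 31.0 and 584.7 CPM in the Stra8-deficient libraries and Ctsl at 190.7, 178.9 and 443.3 CPM. These 2 genes were the largest part of the sum in the third Stra8-deficient library. Relative to the summed Sertoli list without Fshr, the log2 ratio of Gdnf was -11.03, -10.25 and -13.69 in enlarged testes, against -10.41, -10.24 and -10.35 in normal ones. The second Stra8-deficient library lay within the range of wild type, the first below it and the third far below it. The difference was -1.32 (exact permutation p = 0.3), -0.31 without the third Stra8-deficient library and -2.03 without the second. It was -0.29 when the mean of the log2 counts of the markers replaced their sum, an alternative chosen after seeing the data. That mean hides a wide spread: the Stra8-deficient libraries stood at -6.01, -3.61 and -7.91, and wild type at -5.62, -5.50 and -5.54. With 2, 2 and 1 Gdnf reads in the Stra8-deficient libraries, these ratios do not show whether Gdnf follows the Sertoli markers. Of 7 peritubular myoid markers, 2 were higher (Des and Ptch1), 2 lower (Actg2 and Cnn1) and 3 not called. Over all genes 39.0% were higher and 36.7% lower. The summed peritubular markers stood at 188.2 to 418.4 CPM against 388.2 to 432.0 CPM. The ratio of Gdnf to their sum was lower in all 3 Stra8-deficient libraries, -10.40 ± 1.41 against -7.51 ± 0.15 (SD, n = 3 each), a difference of -2.90 (exact permutation p = 0.1) that was -2.09 without the third Stra8-deficient library. This sum rests on different genes in each genotype: mean Actg2 was 4.89 CPM in Stra8-deficient and 255.3 CPM in wild type, and mean Des 102.3 and 7.41 CPM. It is therefore no measure of the number of peritubular cells.

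The ratio of ligand to co-receptor reads had no overlap between genotypes. Gdnf to Gfra1 was -9.60, -9.56 and -10.59 in enlarged testes, against -1.48, -1.22 and -1.26 in normal ones, a log2 difference of -8.59 (exact permutation p = 0.1). After Benjamini-Hochberg adjustment over the 6 ratios computed, this and the peritubular ratio had an exact permutation p of 0.3, the smallest of the 6.

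**Figure D4:**
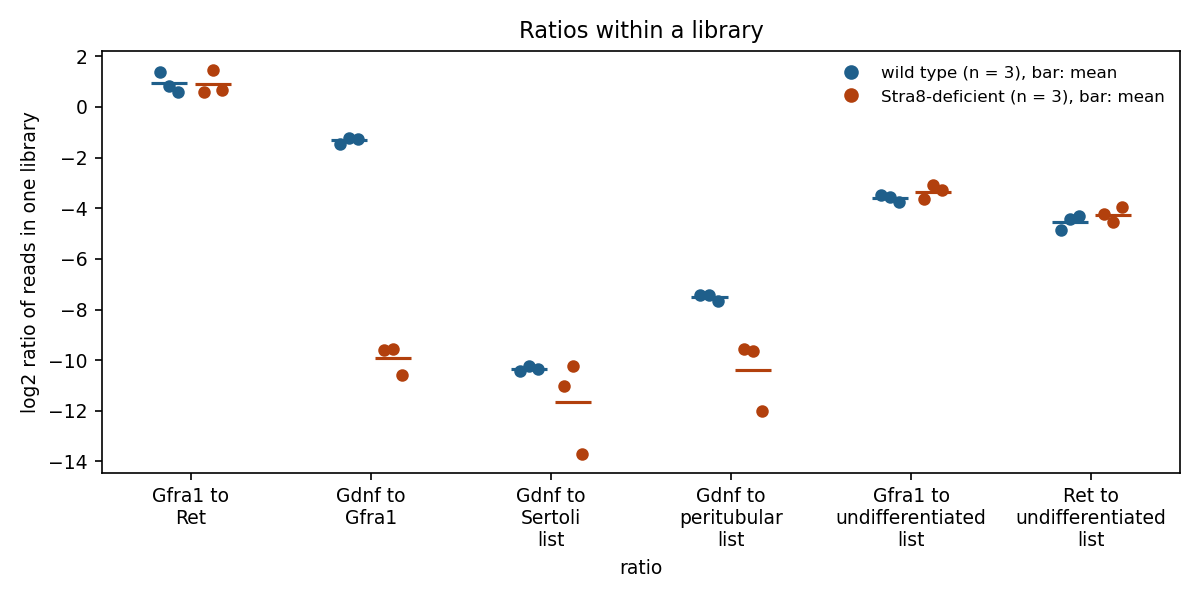
Log2 ratio of reads of a gene to another gene or to a summed marker list, in each of 3 wild-type (blue) and 3 Stra8-deficient (red) libraries, with bars at the means. Gfra1 to Ret and both receptors to the undifferentiated list overlap between genotypes, Gdnf to Gfra1 differs by -8.59, and Gdnf to the Sertoli list overlaps with 1 Stra8-deficient library at -13.69.

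Markers of other cell types were counted as well, and the part of these cells in the values of Gfra2, Gfra3 and Artn was not tested. Their calls stand beside 39.0% higher and 36.7% lower over all genes, and are no result about a cell type by themselves. All 10 round spermatid markers, led by Prm2 and Tnp2, were lower, summing to 7.04 to 12.3 CPM in Stra8-deficient against 21098 to 24391 CPM in wild-type libraries, with Spata3 at 0 reads in all 3 Stra8-deficient ones. Of 7 tested markers of Schwann cells and neurons, cells known to carry Ret and Gfra3, 6 were lower and 1 not called. The sum over the whole list, untested markers included, was 16.7 to 20.4 CPM against 73.3 to 83.7 CPM. Of 7 macrophage markers, led by Lyz2 and Cd68, 6 were higher and 1 not called (190.1 to 666.8 against 87.0 to 94.2 CPM summed, none at 0). Of 5 tested endothelial markers, led by Vwf and Pecam1, 3 were higher and 2 not called (88.6 to 229.0 against 58.2 to 67.4 CPM summed with the untested Emcn, none at 0). Of 8 markers of differentiating spermatogonia, led by Ccnd2 and Dmrtb1, 6 were higher and 1 lower, and the uncalled marker was Stra8 itself (2233 to 3118 against 1059 to 1091 CPM summed, none at 0). Different genes carry that sum in each genotype. Mean Ccnd2 was 1572 CPM in Stra8-deficient and 15.4 CPM in wild type, and mean Dmrtb1 2.43 and 951.0 CPM. None of the 7 Leydig cell markers, led by Cyp17a1 and Insl3, was called.

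Each member's nearest genes were found by the Euclidean distance between log2 CPM profiles, each centred on its mean over the 6 libraries, among 14045 tested genes read in every library. The profiles share their libraries and scaling, and the distances are a description. Nearest to Gfra1 were Dgki, a diacylglycerol kinase gene (distance 0.141), Dctd, which encodes deoxycytidylate deaminase (0.286), and Tro, which encodes trophinin (0.339). Nearest to Ret were L1cam, a neural cell adhesion gene (0.477), Gdap1l1 (0.569) and the DNA repair gene Nthl1 (0.619). For Gfra3 they were Dkk3, of the Dickkopf family (0.734), Mobp, a myelin protein gene (0.737), and Cd9, a tetraspanin gene used to enrich spermatogonial stem cells (0.892). For Gfra2 they were Gm10638 (0.380), 1700086L19Rik (0.420) and the hexokinase gene Hk1 (0.427). Dupd1 (0.394), Phactr1 (0.423) and Fam110a (0.425) lay nearest to Artn. For Gdnf, whose profile the prior count of 2 flattens to a difference of -2.69, they were Ddhd1 (0.164), the RNA-binding protein gene Igf2bp3 (0.174) and Trp53i11 (0.186). E2f4 (0.191), Gcnt4 (0.200) and Rad51l3 (0.200) lay nearest to Gfra4, and Cnn2 (0.259), Pex14 (0.266) and Pgls (0.275) to Nrtn. The prior count also flattened the difference of Gfra3 to 6.62 and that of Artn to -4.13. Gfra3 itself had 0 reads in the first wild-type library, whereas genes without reads in any library were not searched.

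The calls in each pathway list stand beside 39.0% higher and 36.7% lower over all genes, and are no result about a list by themselves. Of 8 tested genes for proteins that share the cell surface with the receptors, 3 were higher, 2 lower and 3 not called, with a median log2 fold change of 0.09 against 0.11 over all genes. Itgb1, the beta-1 integrin used to enrich spermatogonial stem cells, rose by 2.28 ± 0.19, from 83.4 ± 1.65 to 404.6 ± 72.3 CPM (SD, n = 3 each). Hs2st1, which adds the heparan 2-O-sulfate that GDNF binds, rose by 2.19 ± 0.18 (edgeR, adjusted p = 4.92e-06). Ncam1, a neural adhesion molecule that can act as a GDNF receptor in place of RET, fell by 2.97 ± 0.31, from 32.4 ± 1.51 to 4.16 ± 1.47 CPM (SD, n = 3 each), and was not called under Sertoli scaling (-0.25). Sort1, a sorting receptor, was lower (-1.27 ± 0.18), a value that turned to 1.35 under Sertoli scaling. Gfral, a distant GFRA relative and the receptor of GDF15, had 0 reads in all 6 libraries.

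Of 27 tested genes for adaptors and kinases below RET, 15 were higher, 5 lower and 7 not called, with a median of 0.66 against 0.11 over all genes. Map2k1, which encodes the MAP kinase kinase MEK1, rose by 3.24 ± 0.19 (edgeR, adjusted p = 6.45e-07) from 11.2 ± 0.842 to 106.3 ± 13.5 CPM (SD, n = 3 each). Dok4, an adaptor that binds RET, rose by 2.09 ± 0.49 and by 1.45 without the first Stra8-deficient library. Its relative Dok5 did not pass the filter, with 13, 48 and 7 reads in enlarged testes, against 1, 2 and 0 in normal ones. Gab2, a docking protein for phosphatidylinositol 3-kinase, fell by 2.46 ± 0.19 (edgeR, adjusted p = 3.37e-06), a call lost under Sertoli scaling (-0.03). Shc2, an adaptor of neurons, was at -1.13 ± 0.40 (edgeR, adjusted p = 0.0289), a call lost with upper-quartile factors or when only library size was used and without the second or the third Stra8-deficient or any 1 wild-type library (-0.88 to -1.19), and of opposite sign under Sertoli scaling (1.41). It was -1.77 without the first Stra8-deficient library.

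Inhibitors of the signal gave 4 higher, 1 lower and 6 not called of 11 tested genes (median 0.19). Spry2, a Sprouty inhibitor induced by receptor kinases, rose by 2.52 ± 0.27, from 3.23 ± 0.259 to 18.5 ± 2.39 CPM (SD, n = 3 each), and Spred1, a related inhibitor of the RAS pathway, by 1.89 ± 0.23. Cbl, a ubiquitin ligase that removes active RET, was lower at -1.75 ± 0.18 (edgeR, adjusted p = 2.38e-05), and at 0.79 under Sertoli scaling.

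Genes that GDNF is known to induce in cultured spermatogonia had 3 higher, 3 lower and 1 not called of 7 tested (median -0.66 against 0.11 over all genes). Pou3f1, a POU transcription factor, rose by 4.47 ± 0.44 and stood at 63.9, 28.4 and 29.8 CPM against 2.18, 2.11 and 1.10 CPM. Egr2, an immediate early gene, rose by 3.01 ± 0.42. Lhx1, a LIM homeobox gene, fell by 3.42 ± 0.47 to 0.401, 0.951 and 0.334 CPM from 6.86, 6.06 and 5.13 CPM, and was at -4.04 without the second Stra8-deficient library. Id4, an inhibitor of bHLH factors found in stem spermatogonia, fell by 2.76 ± 0.21. Lhx1 (-0.80) and Id4 (-0.29) were not called under Sertoli scaling.

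Of 6 tested genes known to control Gdnf in somatic cells 3 were higher and 3 lower, with 1 lower under Sertoli scaling. Fshr, the receptor of follicle-stimulating hormone on Sertoli cells, fell by 4.71 ± 0.47, from 36, 43 and 25 reads in wild type to 2, 1 and 4. Il1b, an inflammatory cytokine, fell by 3.16 ± 0.51 from a low level (2.30 ± 0.338 CPM; SD, n = 3), was at -3.85 without the third Stra8-deficient library and was not called under Sertoli scaling (-1.22). Hes1, a repressor downstream of Notch that can bind the Gdnf promoter, rose by 2.16 ± 0.29, and Rbpj, the DNA-binding protein of Notch signalling, by 1.20 ± 0.33 (edgeR, adjusted p = 0.00799).

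**Figure D5:**
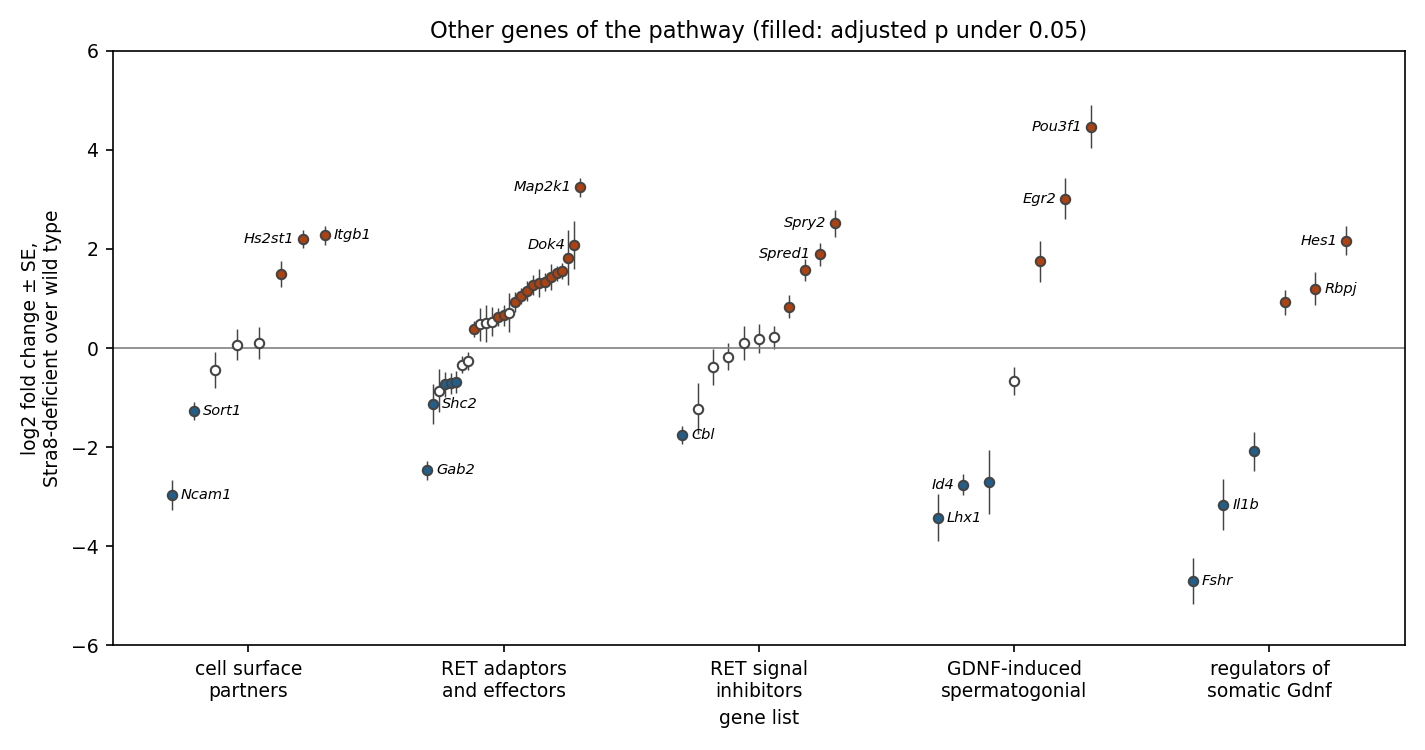
Log2 fold change ± SE (Stra8-deficient over wild type) of the tested genes of 5 pathway lists, each gene a point and filled where called at an adjusted p under 0.05 (red higher, blue lower). Every list holds genes on both sides of 0, from Fshr at -4.71 to Pou3f1 at 4.47.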

How the data were processed

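The labels' processing notes name TopHat, HTSeq, edgeR and build mm9, with no version, annotation or strand setting. The deposited counts are raw reads per gene symbol. The authors' deposited table holds log2 ratios and log2 abundances, with nominal and corrected p-value columns. HTSeq's counters of reads outside genes (20.9% to 34.5% of a library) were left out, and the 21786 symbols found in all 6 files were kept.

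Counts were filtered with filterByExpr, TMM-scaled and tested by edgeR 4.0.16 (quasi-likelihood, R 4.3.3) with genotype as the only term. P-values were adjusted over the 15018 genes by Benjamini-Hochberg, threshold 0.05. The fit was also run on simulated data with the same spread in both genotypes and few changed genes. That run does not test the unequal spread or the scaling of these libraries. Alternatives were 4 other scalings, no filter, DESeq2 1.42.0, limma-voom (limma 3.58.1), a replicate block and each library left out. Between replicates, chi-square per gene was 2.63 to 4.17 in wild type and 50.0 to 61.3 in Stra8-deficient libraries, above counting noise alone, and each library was counted as 1 sample. Members and lists were chosen with earlier results of these data known. Named besides the members were, in each pathway list, the 2 called genes that rose most and the 2 that fell most (mean log2 CPM of 0 or more), the 3 genes nearest to each member, and the 2 highest markers of each cell type, except where a marker is not reported here. Dok5, Gfral, Des, Ptch1, Actg2, Cnn1, Pax7, Spata3, Defb19 and Emcn were named after their values were seen.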

Additional observations from a re-analysis of the deposited data

How the results depend on the processing

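Over the 14 alternatives, Gfra1 (4.88 to 7.59), Gfra3 (6.89 to 9.95), Ret (4.80 to 7.49), Artn (-5.93 to -2.55) and Gfra2 (-7.57 to -4.62) kept direction and call. After scaling to the Sertoli list, Gdnf was at -1.58 (not called), Nrtn at 2.47 (called higher), Gfra4 at 1.46, Sort1 at 1.35, Shc2 at 1.41 and Cbl at 0.79, and the family had 2 lower calls; higher and lower calls were 6 and 0 for cell surface partners, 24 and 0 for adaptors, 9 and 0 for inhibitors, and lower calls 0 for GDNF-induced genes and 1 for regulators of Gdnf. That scaling moves the median of all genes to 2.62. Gfra4 was at -0.41 with library size alone, which like upper-quartile factors left 1 lower adaptor. RLE size factors raised the lower inhibitors from 1 to 2 and put Nrtn at -2.0e-04. Leaving out 1 library gave 10246 to 11542 called genes, -0.11 to 0.33 for Nrtn, -1.23 to -0.92 for Gfra4 and -0.31 to 0.20 for the Gfra1 to Ret ratio. With the longest transcript as length, Gfra1 was at 37.9 and 1.19, wild-type Gfra4 at 5.90 and wild-type Ret at 0.525 CPM per kilobase. Deviations of same-numbered libraries correlated at 0.058, 0.080 and -0.040, and those of differently numbered ones at -0.125 to 0.076. With 3 libraries per genotype these values show no pairing by number but cannot exclude it. With the replicate block the members' calls were unchanged (Gfra1 4.99, Gdnf -3.77). Gdnf, Artn and Gfra2 in Stra8-deficient libraries, Gfra3 in wild type and Pspn in both rest on few reads.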
